A study of Arabidopsis thaliana with 44 samples.

Results

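QQS (AT3G30720) is an orphan gene of Arabidopsis thaliana and 1 of the 34262 genes listed for every library. It was selected on its measured levels in these same 44 libraries, over all 13 groups, so its levels and fold changes are given as a description and no test of QQS is made. Total RNA from plants labelled as 7 days old was sequenced. Roots came from the quadruple mutant tpst/psyr1,2,3, from tpst-1 with 1 uM PSY5 and from tpst-1 (3 libraries each). Shoots came from tpst/psyr1,2,3, from tpst-1 with 1 uM PSY5, from tpst-1, from the triple mutant psyr1,2,3 and from wild type (4 libraries each). Whole tpst-1 seedlings were sampled before PSY5 (0 h) and after 2 h, 6 h, 24 h and 7 d with 1 uM PSY5 (3 libraries each).

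TPST is the enzyme that adds sulfate to tyrosines of secreted peptides such as PSY5, and PSYR1, PSYR2 and PSYR3 are receptor kinases for PSY peptides. Every root and seedling group carried tpst-1, and so did every shoot group except psyr1,2,3 and wild type. No wild type or psyr1,2,3 roots were analysed here, so in roots the loss of the receptors was seen only on top of tpst-1. The labels do not say which psyr alleles were combined, whether a genotype was 1 line or several, or whether a library came from pooled plants. No seedlings without PSY5 were analysed at the later times, so time and PSY5 cannot be told apart there. All seedling groups carry the age label of 7 days, also the one with 7 d of PSY5.

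QQS stands for Qua-Quine Starch. The gene has no recognisable relative outside its species, and plants with reduced QQS accumulate more starch in their leaves. Its small protein binds NF-YC4, a subunit of the NF-Y transcription factors, and raised QQS shifts the plant's composition from carbohydrate toward protein. QQS transcription is also known to differ between natural lines and between sister plants along with the DNA methylation of the sequence before the gene.

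The gene lies on the plus strand at chr3:12349047-12349933 of TAIR10.1 and spans 887 bases, with 0 other annotated genes overlapping it. RefSeq lists 3 transcripts of 684, 654 and 534 bases, which encode proteins of 58, 59 and 58 residues. The 250 bases before the transcript start are shown here, from RefSeq's TAIR10.1 sequence. The length of this window is a setting and does not mark out a methylated stretch. Methylation before the gene goes with QQS transcription in natural lines. Capitals mark the CG dinucleotides, where such methylation sits.

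QQS upstream sequence, plus strand, 5′ to 3′, chr3:12348797-12349046: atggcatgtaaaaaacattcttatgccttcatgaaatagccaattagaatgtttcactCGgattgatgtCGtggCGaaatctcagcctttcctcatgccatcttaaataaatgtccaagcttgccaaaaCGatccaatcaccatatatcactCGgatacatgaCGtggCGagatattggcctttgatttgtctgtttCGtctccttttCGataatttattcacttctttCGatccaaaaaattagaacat

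It holds 10 CG sites, where the median over the same window of 27443 genes was 5 and 12.5% of them held at least 10. The motif CG reads the same on both strands, so each site was counted once. The longest stretch that occurs again without any change in the window has 10 bases and starts at positions 54 and 148, counted from the 5′ end. Longer repeats with mismatches were not searched for. Methylation was not measured in these libraries. No stretch outside the locus aligned to the QQS transcripts in a search of the genome with BLAST+ at an e-value of 0.001, so the reads given to QQS have no near-identical copy to be shared with in this assembly.

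**Figure D1:**
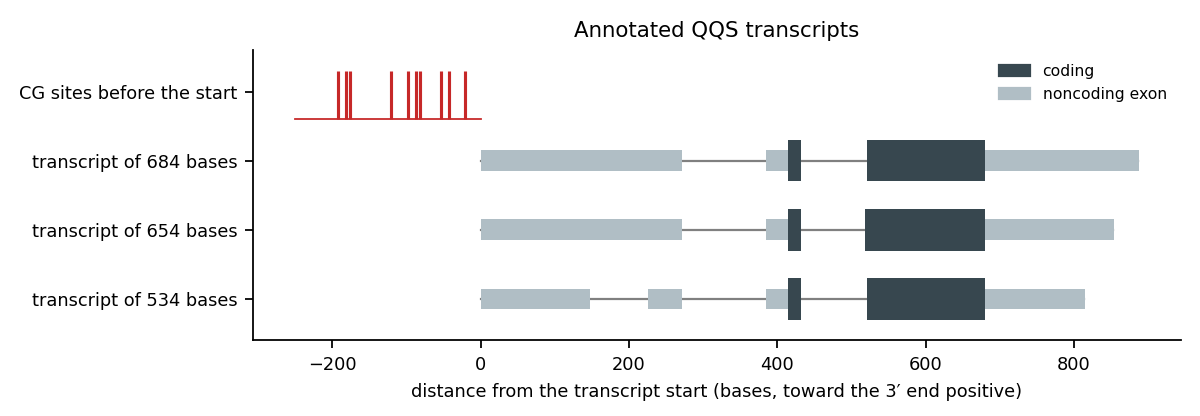
Annotated QQS transcripts drawn to scale, with the distance from the transcript start in bases on the x axis. Thick dark bars are coding parts, thin light bars are noncoding parts of exons, and red ticks are the 10 CG sites in the 250 bases before the start. The coding parts start and end at the same bases in the 3 forms and differ by 3 bases at the start of the last exon, and the 3′ ends all differ. The form of 534 bases has 1 more intron before the coding part.

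The files give each gene a mean transcript length per library, and for QQS this reflects the forms to which its reads were assigned. Of the 41 libraries with QQS reads, 14 were listed at exactly 654 bases, 1 at 684 bases and 1 at 534 bases. The one at 534 bases, tpst-1 root replicate 3, had 1 QQS read. At 654 bases, tpst-1 root replicate 2 and replicate 1 of tpst-1 roots with PSY5 also had 1 read each. The other 25 had a length between these values, which is a mixture of forms. In the tpst/psyr1,2,3 shoots, where QQS had the most reads, the length lay between 629.9 and 668.8 bases in the 4 libraries. The QQS reads there were thus assigned to a mixture of forms in each of them.

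Root libraries held 3206526 to 4133623 reads, shoot libraries 8610277 to 16816553 and seedling libraries 9878853 to 15401969. Summed levels of 8 green tissue markers were 67.2 to 189 TPM in roots and 33800 to 48300 TPM in shoots, and those of 8 root markers were 195 to 410 TPM in roots and 2.13 to 11.0 TPM in shoots. TPST transcript was present in all groups, and in shoots it averaged 6.63 ± 1.29 TPM for tpst/psyr1,2,3, 6.75 ± 0.777 TPM for tpst-1 with PSY5, 6.70 ± 1.59 TPM for tpst-1, 11.6 ± 0.472 TPM for psyr1,2,3 and 8.55 ± 0.605 TPM for wild type (SD, n = 4 each). The shoot means of the groups with tpst-1 were thus below those of both groups without it, by more than the larger SD. Shoot levels of PSYR1 were 1.37 ± 0.151 TPM for tpst/psyr1,2,3 and 5.02 ± 1.80 TPM for tpst-1 (SD, n = 4 each). Those of PSYR2 were 4.99 ± 0.366 TPM for tpst/psyr1,2,3 and 5.99 ± 2.89 TPM for tpst-1 (SD, n = 4 each), and PSYR3 was higher in tpst/psyr1,2,3 roots (60.5 ± 3.49 TPM) than in tpst-1 roots (19.0 ± 0.906 TPM, SD, n = 3 each). In the shoot library tpst-1 replicate 1 the receptors stood apart, with PSYR1 at 2.33 TPM and PSYR2 at 1.67 TPM, against 5.81 to 6.02 TPM and 7.24 to 7.55 TPM in the other 3 tpst-1 shoot libraries.

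QQS was nearly silent in tpst-1 roots and clearly present once the receptors were also lost. In tpst/psyr1,2,3 roots it had 9.75, 19.1 and 10.6 TPM, from 9, 16 and 9 reads. In tpst-1 roots with PSY5 it had 1.05 TPM from a single read in 1 library and no read in the other 2. In tpst-1 roots it had no read in 1 library and 1.13 and 1.23 TPM, 1 read each, in the other 2. The lowest quadruple-mutant root library thus lay above the highest of the other 6, and the groups did not overlap. A count of 0 allows up to 3 reads, which corresponded to 3.15 to 3.69 TPM in the root libraries with a QQS read, so even at this depth a level like that of the quadruple mutant would have been seen.

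Per library read, QQS reads were 17.1 times as frequent in tpst/psyr1,2,3 roots as in tpst-1 roots, with a 95% exact interval of 4.40 to 147 (34 reads against 2). Against tpst-1 roots with PSY5 the ratio was 37.1, with an interval of 6.23 to 1510 (34 reads against 1). These intervals cover counting error only. An effect of PSY5 on QQS was not detectable at the depth of these roots, with a ratio of 0.462 and an interval of 0.00783 to 8.87 for tpst-1 with PSY5 over tpst-1 (1 read against 2). Group means were 13.2 ± 5.17 TPM in tpst/psyr1,2,3, 0.351 ± 0.609 TPM in tpst-1 with PSY5 and 0.790 ± 0.686 TPM in tpst-1 roots (SD, n = 3 each).

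The edgeR fit over all root genes gave QQS a log2 fold change of 3.88 ± 0.75 (SE) in tpst/psyr1,2,3 over tpst-1, and 18 of 19958 genes had a larger one. Over tpst-1 with PSY5 it was 4.74 ± 0.87, and 5 genes had a larger one. With 1 or 2 reads in the lower groups these fitted values depend on the prior count. The ratios of reads do not, but their intervals leave out the spread between libraries. Separation of every library was common, however, since 18.2% of the tested genes were higher in each tpst/psyr1,2,3 root library than in each tpst-1 one, and 12.9% were so against tpst-1 with PSY5.

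Green tissue markers were somewhat higher in the same roots, at 105, 106 and 189 TPM summed in tpst/psyr1,2,3, against 67.2 to 77.1 TPM in tpst-1 with PSY5 and 77.3 to 108 TPM in tpst-1. These sums were 0.274 to 0.493% of the median in tpst/psyr1,2,3 shoots, while QQS in the same root libraries reached 23.3 to 45.7% of its median there. The root library with the most QQS, replicate 2, also had the most green markers. Root markers were higher in tpst/psyr1,2,3 roots too, at 371 to 410 TPM, with 305 to 335 TPM in tpst-1 roots with PSY5, where QQS had a single read, and 195 to 219 TPM in tpst-1 roots. Their part in the QQS difference was not tested. In RNA from whole organs, fewer cells that express QQS and less QQS RNA per cell cannot be told apart.

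**Figure D2:**
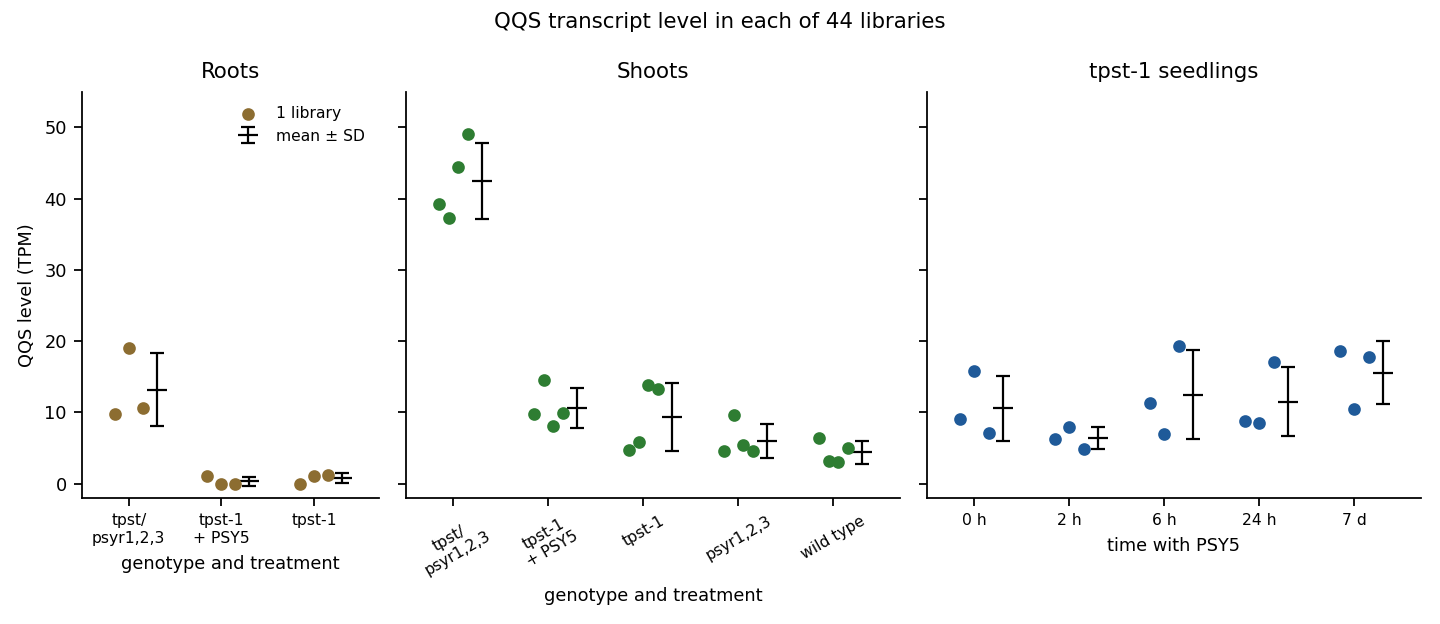
QQS level in TPM (y axis) in each of the 44 libraries, in roots, shoots and tpst-1 seedlings. Points are libraries, and black marks are the group mean ± SD (n = 3, 4 and 3 per group). In roots and in shoots the tpst/psyr1,2,3 libraries lie above all others of the tissue, and each seedling group after 0 h overlaps with 0 h.

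Shoots showed the highest QQS levels of the series, again in the quadruple mutant. QQS had 39.2, 37.3, 44.4 and 49.0 TPM in the 4 tpst/psyr1,2,3 shoot libraries, from 108 to 147 reads each. It had 9.72, 14.6, 8.08 and 9.96 TPM in tpst-1 with PSY5. In tpst-1 it had 4.73, 5.80, 13.8 and 13.2 TPM, which fall into a lower and a higher pair. The lowest quadruple-mutant library was more than any library of the other 4 shoot groups. QQS had 4.52, 9.59, 5.36 and 4.64 TPM in psyr1,2,3. It had 6.35, 3.20, 2.98 and 5.08 TPM in wild type, where every library was below the range of tpst-1 with PSY5 but not below that of tpst-1 or psyr1,2,3.

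Ordered by mean, shoot QQS was 42.5 ± 5.30 TPM in tpst/psyr1,2,3, 10.6 ± 2.79 TPM in tpst-1 with PSY5, 9.39 ± 4.79 TPM in tpst-1, 6.03 ± 2.41 TPM in psyr1,2,3 and 4.40 ± 1.60 TPM in wild type (SD, n = 4 each). Only the first step of this order, 31.9 TPM, exceeded the spread between libraries. The other 3 steps, of 1.21, 3.36 and 1.63 TPM, were each smaller than the larger SD of the 2 groups beside them, and the ranges overlapped. The coefficient of variation was smallest where QQS was highest, at 12.5% in tpst/psyr1,2,3, and largest in tpst-1, at 51.0%.

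The mean of tpst/psyr1,2,3 shoots was 9.65 times that of wild type, 7.05 times that of psyr1,2,3, 4.52 times that of tpst-1 and 4.01 times that of tpst-1 with PSY5. In the fit over all shoot genes the log2 fold change of the quadruple mutant was 3.02 ± 0.32 over wild type, 2.75 ± 0.31 over psyr1,2,3, 1.83 ± 0.29 over tpst-1 and 1.87 ± 0.29 over tpst-1 with PSY5. Between 124 and 145 of 20723 genes had a larger log2 fold change in these 4 comparisons. Each had separate libraries, which was also true of 25% of the tested genes against wild type, 5.53% against psyr1,2,3, 25.9% against tpst-1 and 14.9% against tpst-1 with PSY5. Organelle genes took 1.35 to 1.87% of the reads in tpst/psyr1,2,3 shoots, 2.34 to 3.66% in tpst-1 with PSY5, 2.31 to 4.45% in tpst-1, 1.38 to 1.68% in psyr1,2,3 and 2.07 to 2.67% in wild type. This share was thus low in both groups with the psyr1,2,3 mutations, and QQS was high in only one of them. The genes with ENSRNA identifiers showed the same split, with at most 0.447% in tpst/psyr1,2,3 and 0.397% in psyr1,2,3, and 0.510 to 1.64% in the other 3 groups. The part of these shares in the QQS difference was not tested.

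The single steps were smaller than the combined one. In tpst-1 shoots QQS was 2.13 times the wild type mean, with overlapping libraries and a log2 fold change of 1.19 ± 0.33. In psyr1,2,3 shoots it was 1.37 times the wild type mean, with overlapping libraries and a log2 fold change of 0.27 ± 0.35. The loss of the receptors thus went with 1.83 ± 0.29 on the log2 scale when TPST was also mutated and with 0.27 ± 0.35 when it was not. The difference of these log2 fold changes, a contrast chosen after the values were seen, was 1.56 ± 0.45, and 278 of 20723 genes had a larger one.

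PSY5 left the shoot level of QQS in tpst-1 about where it was, at 1.13 times the mean without PSY5 and a log2 fold change of -0.05 ± 0.30. Reads per library read gave a ratio of 1.05 with a 95% exact interval of 0.840 to 1.32, which covers counting error only and not the spread between the tpst-1 libraries. Against wild type, tpst-1 shoots with PSY5 were 2.40 times as high, with a log2 fold change of 1.15 ± 0.33 and separate libraries, as 13.5% of the tested genes had them. Each tpst-1 shoot library with PSY5 thus lay above the wild type range, while the tpst-1 libraries without PSY5 overlapped with it.

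TPM and the fit differ in shoots because they scale libraries differently. On the scale of log2(TPM + 1) the median of all tested genes was higher by 0.33 in tpst/psyr1,2,3 over tpst-1 shoots, and QQS was 2.18 there, or 1.85 above that median, against 1.84 above the median in the edgeR fit. Without the shoot library tpst-1 replicate 1 the log2 fold change of QQS was 1.72 in tpst/psyr1,2,3 over tpst-1, 1.29 in tpst-1 over wild type and -0.16 in tpst-1 with PSY5 over tpst-1. QQS in that library, at 4.73 TPM, was the lowest of its group but close to replicate 2, at 5.80 TPM.

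**Figure D3:**
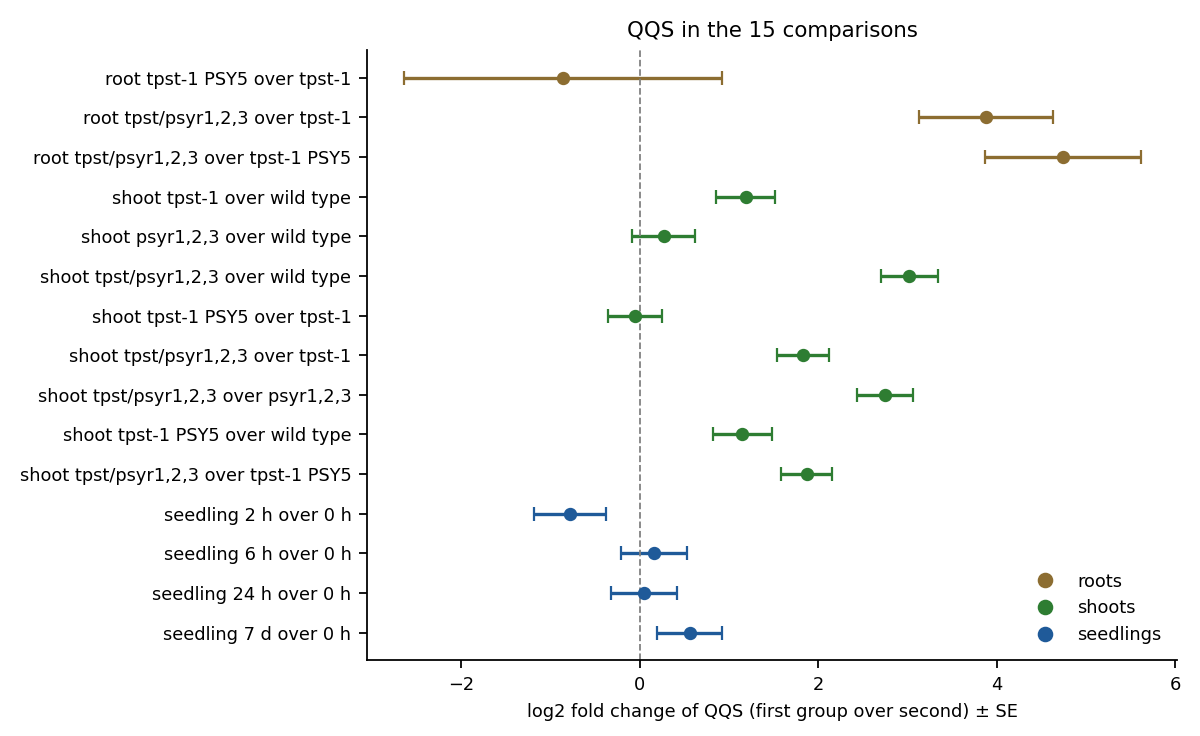
Log2 fold change of QQS ± SE (x axis) in the 15 comparisons (y axis), from the edgeR fit over all genes of each tissue. The first-named group is on top of each ratio, so points right of the dashed line are higher in it. The 6 comparisons with tpst/psyr1,2,3 range from 1.83 to 4.74, and the others from -0.86 to 1.19.

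The difference of the quadruple mutant from tpst-1 was thus seen in 2 organs, although in roots it started from almost no reads. Among 17877 genes tested in both, 0 had a larger log2 fold change than QQS in roots and in shoots at once, which is a description, since both values were known when QQS was chosen. Among all genes ranked by group mean, 90.2% lay below QQS in tpst/psyr1,2,3 shoots, against 56.1% in wild type shoots. In roots 68.8% lay below it in tpst/psyr1,2,3, against 41.4% in tpst-1. These shares are over all 34262 listed genes, those without reads included. In the root libraries without a QQS read, 38.0 to 38.8% of genes were at or below it. The 41.4% in tpst-1 roots is thus close to the floor. QQS ranked higher in quadruple-mutant shoots than in wild type shoots.

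**Figure D4:**
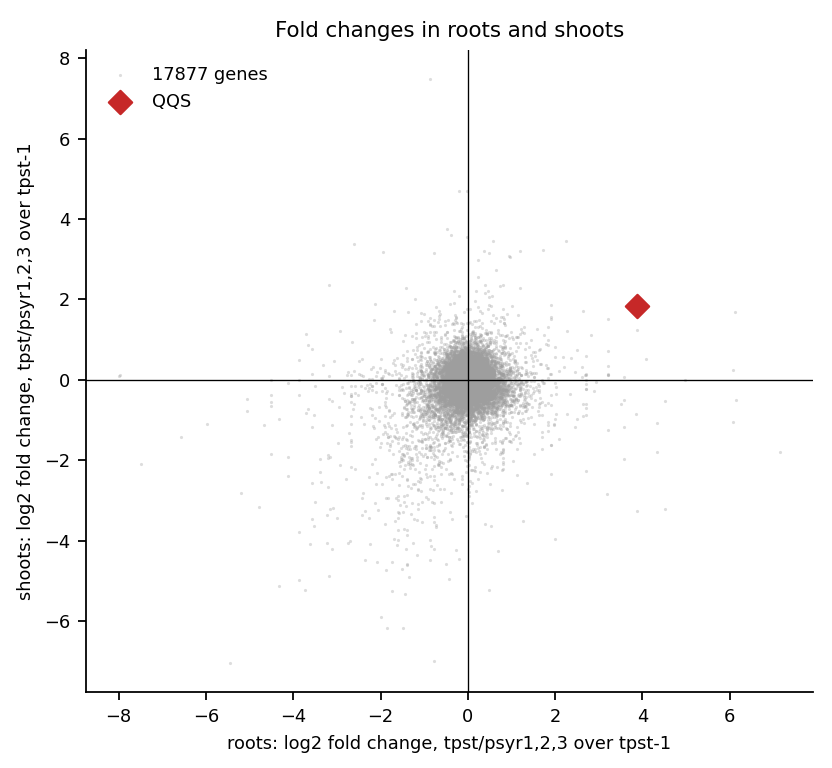
Log2 fold change in tpst/psyr1,2,3 over tpst-1 in roots (x axis) and in shoots (y axis) for 17877 genes tested in both organs (grey points). QQS (red diamond) lies at 3.88 in roots and 1.83 in shoots, with no gene both to its right and above it.

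In tpst-1 seedlings QQS was lowest after 2 h of PSY5 and highest after 7 d, with both overlapping 0 h. It had 9.08, 15.8 and 7.05 TPM at 0 h and 6.27, 8.0 and 4.88 TPM at 2 h. It had 11.4, 6.94 and 19.3 TPM at 6 h and 8.76, 8.57 and 17.1 TPM at 24 h. At 7 d it had 18.7, 10.5 and 17.7 TPM. Every time point overlapped with 0 h, and within each of 0 h, 6 h and 24 h 1 library was well above the other 2. The 2 h libraries, at 8.0 TPM or less, were all below those of 24 h, narrowly (8.57 TPM), and below those of 7 d (10.5 TPM). The share of all genes that part in this way was not worked out, so nothing is drawn from it.

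Seedling means were 10.6 ± 4.56 TPM at 0 h, 6.38 ± 1.56 TPM at 2 h, 12.5 ± 6.24 TPM at 6 h, 11.5 ± 4.85 TPM at 24 h and 15.6 ± 4.45 TPM at 7 d (SD, n = 3 each). The log2 fold changes over 0 h were -0.78 ± 0.40 at 2 h, 0.16 ± 0.37 at 6 h, 0.05 ± 0.37 at 24 h and 0.56 ± 0.36 at 7 d. Reads per library read gave ratios over 0 h of 0.583 at 2 h, with a 95% exact interval of 0.428 to 0.788, and of 1.49 at 7 d, with an interval of 1.18 to 1.87. At 6 h and 24 h the ratios were 1.13 (0.880 to 1.46) and 1.01 (0.779 to 1.32). These intervals cover counting error only and not the spread between libraries. No neighbouring pair in the order of seedling means differed by more than the larger SD.

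Over all 13 groups the order of means ran from tpst/psyr1,2,3 shoots at 42.5 TPM to tpst-1 roots with PSY5 at 0.351 TPM. It had 2 steps beyond the larger SD of the groups beside them, one of 26.9 TPM between tpst/psyr1,2,3 shoots and the next group, seedlings at 7 d, and one of 3.61 TPM between wild type shoots and tpst-1 roots. The 10 groups between these steps, tpst/psyr1,2,3 roots among them, formed 1 run of overlapping neighbours. Roots were lower than shoots of the same label, at 13.2 against 42.5 TPM in tpst/psyr1,2,3, 0.351 against 10.6 TPM in tpst-1 with PSY5 and 0.790 against 9.39 TPM in tpst-1. The labels name 2 library kits without saying which libraries they made, so organ and kit cannot be told apart in these cross-organ levels.

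Few of the loci around QQS could be compared with it. Of the 5 annotated loci on either side, 7 are pseudogenes without values here. They include the nearest locus on each side, at 340 and 445 bases. GDU6 (AT3G30725), a member of the GLUTAMINE DUMPER family of membrane proteins, lies 2538 bases after QQS on the same strand. It averaged 4.27 ± 1.07 TPM in tpst/psyr1,2,3 roots and 3.42 ± 2.08 TPM for tpst-1 (SD, n = 3 each), a log2 fold change of 0.28 ± 0.65 with an adjusted p of 0.837 by edgeR's quasi-likelihood test. In shoots it averaged 0.599 ± 0.692 TPM for tpst/psyr1,2,3 and 0.766 ± 0.314 TPM for tpst-1 (SD, n = 4 each), a log2 fold change of -0.80 ± 0.98 with an adjusted p of 0.599 by the same test. AT3G30730, 7346 bases away on the other strand, reached at most 4.27 TPM in any library. The lncRNA AT3G06065 had no read in any of the 44 libraries. GDU6 thus showed no rise like that of QQS in roots. In shoots GDU6 and AT3G30730 were near the floor, which limits what they can show.

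By the shape of its pattern over the 13 group means, on the scale of log2(TPM + 1), QQS was most like CYP71B28, a cytochrome P450, with a Pearson r of 0.857 (n = 13 groups). AT1G05153, AT1G06450, the transporter-like UMAMIT45 and AT1G09427 followed, with r between 0.839 and 0.795. The most opposed were AT4G08045 at -0.876, AT4G08868 at -0.846 and ENSRNA049493635 at -0.835, all of them at 0 TPM in tpst/psyr1,2,3 roots and shoots. Some of these means rest on few libraries, with an SD above the mean. In tpst-1 roots AT4G08045 averaged 3.12 ± 5.4 TPM and ENSRNA049493635 10.7 ± 18.6 TPM, and with PSY5 3.11 ± 5.39 and 10.7 ± 18.5 TPM. AT1G05153 averaged 7.88 ± 13.6 TPM in tpst/psyr1,2,3 roots (SD, n = 3 each). The root groups share library depth and organ, and QQS was low in those of tpst-1 with and without PSY5, so such r values can follow organ as well as genotype.

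After the mean of each tissue was subtracted, the most like genes were NF-YC1 at 0.914, AT4G07390 at 0.884, AT1G74630 at 0.875, AT3G03702 at 0.875 and ACR1, of the ACT domain repeat family, at 0.874 (n = 13 groups). NF-YC1 is a paralogue of the QQS partner NF-YC4. It averaged 11.6 ± 1.63 TPM in tpst/psyr1,2,3 roots and 8.71 ± 1.09 TPM for tpst-1 (SD, n = 3 each). In shoots it averaged 32.7 ± 1.3 TPM for tpst/psyr1,2,3 and 27.7 ± 6.56 TPM for tpst-1 (SD, n = 4 each). These steps were far smaller than those of QQS, since r compares shapes and not sizes. The lists of like genes were not stable, and only 0 or 1 of the 5 names stayed under each of 3 other ways of scoring likeness. Of the 50 most like genes, 20% lay on chromosome 3 before and 18% after subtraction, against 19.4% of the 23833 genes ranked.

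Genes of starch metabolism, to which QQS is tied by its mutant phenotype, were described from lists chosen with earlier results of these data known. Counts are of genes passing an adjusted p of 0.05 by edgeR's quasi-likelihood test over all genes of the tissue. In tpst/psyr1,2,3 over tpst-1 roots, where 15.4% of all genes passed, 0 of 17 starch synthesis genes passed by edgeR, DESeq2 or limma, with 1 at an unadjusted p under 0.05 by edgeR. Of 17 starch breakdown genes 0 were higher and 2 were lower, the beta-amylase genes BAM1 and BAM3. In the same comparison in shoots, where 14.9% passed, 1 synthesis gene was higher and 1 lower of 17, and 4 breakdown genes were higher and 2 lower of 18. The synthesis gene that fell was GBSS1, the granule-bound starch synthase, at 16.8 ± 1.86 TPM for tpst/psyr1,2,3 and 31.9 ± 9.74 TPM for tpst-1 (SD, n = 4 each), with a log2 fold change of -1.28 ± 0.14 and an adjusted p of 1.21e-06. The strongest call among breakdown genes was the beta-amylase-like BAM9, which fell by 1.15 ± 0.15 on the log2 scale with an adjusted p of 1.45e-05. On the log2(TPM + 1) scale, with its shift of 0.33, 7 synthesis genes were higher and 1 lower by limma, and 10 breakdown genes were higher and 1 lower, with GBSS1 and BAM9 still lower. In that fit 32.9% of all genes were called, and 88% of those were higher.

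Starch genes differed along the PSY5 series in seedlings, while QQS overlapped with 0 h at each time. At 24 h, where 14.1% of all genes passed, 11 of 18 breakdown genes rose and 1 fell, with a median log2 fold change of 0.32 against 0.01 over all genes, and 5 of 17 synthesis genes rose. The breakdown genes that rose included the debranching enzyme ISA3 by 0.61 ± 0.09 (adjusted p = 3.60e-05) and the glucanotransferase DPE2 by 0.41 ± 0.07 (adjusted p = 0.000221), while QQS differed by 0.05 ± 0.37. Breakdown genes numbered 3 higher and 1 lower at 2 h, where 12.5% of all genes passed, 5 higher and 1 lower at 6 h, where 14.5% passed, and 4 higher and 4 lower at 7 d, where 19.4% passed. In tpst-1 roots with PSY5 over tpst-1 roots, where 15.2% passed, 4 of 17 breakdown genes fell and 0 rose, BAM1 by 0.45 ± 0.08 (adjusted p = 0.000394). That count was 1 by DESeq2, 2 without tpst-1 replicate 3, PSY5 replicate 2 or PSY5 replicate 3, and 3 without any other library.

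NF-YC4, the QQS partner, was lower in tpst/psyr1,2,3 than in tpst-1 shoots in the fit, with a log2 fold change of -0.47 ± 0.09 and an adjusted p of 0.00117, although its TPM was 41.9 ± 3.63 and 45.2 ± 8.94 (SD, n = 4 each). On the log2(TPM + 1) scale it differed by -0.09 with an adjusted p of 0.581 by limma, so this call rests on the scaling. Of 13 NF-Y genes, 0 were higher and 3 lower in that comparison by edgeR, and 2 were higher and 1 lower by limma on log2(TPM + 1). NF-YC4 also fell by 0.32 ± 0.09 in tpst-1 shoots with PSY5 over tpst-1, where 5.15% of all genes passed (adjusted p = 0.0446, or 0.0583 without tpst-1 replicate 1), and by 0.52 ± 0.16 in seedlings at 2 h (adjusted p = 0.0312, or 0.118 by limma on log2(TPM + 1)), the time of the lowest QQS mean. It did not pass in either root comparison, with 0.18 ± 0.17 in tpst/psyr1,2,3 over tpst-1 (adjusted p = 0.539), nor in tpst-1 over wild type shoots, where 9.21% of all genes passed (adjusted p = 0.331). Of the other NF-Y subunits, NF-YA2 rose in tpst/psyr1,2,3 over tpst-1 roots by 1.22 ± 0.21 (adjusted p = 0.000228). It also rose in tpst-1 with PSY5 over tpst-1 roots by 1.38 ± 0.21 (adjusted p = 3.16e-05). In that comparison QQS had 1 read against 2, too few to tell a difference. Of 11 NF-Y genes 2 passed in tpst/psyr1,2,3 over tpst-1 roots, or 1 by DESeq2, without any 1 of the tpst-1 libraries or without tpst/psyr1,2,3 replicate 2 or 3, where 15.4% of all genes passed by edgeR.

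Among 34 genes of DNA methylation and silencing, listed because QQS is known as a methylation-sensitive locus, 32 were tested in roots and 32 in shoots. In tpst/psyr1,2,3 over tpst-1, 2 rose and 1 fell in roots, and 3 rose and 2 fell in shoots, or 9.38% and 15.6% of those tested, against 15.4% and 14.9% of all genes. The shoot count of 5 was 2 without tpst/psyr1,2,3 replicate 1, and 0 with the compared groups alone. That last fit called 1059 genes, where the fit of all shoot groups called 3096. The root count of 3 was 1 by DESeq2, and also without any 1 of the tpst-1 libraries or without tpst/psyr1,2,3 replicate 1 or 2. SUVH5, a histone methyltransferase linked to silencing, fell in these roots by 0.93 ± 0.21 (adjusted p = 0.00358). It also fell by 0.75 ± 0.20 in tpst-1 with PSY5 over tpst-1 roots (adjusted p = 0.0129, or 0.115 by DESeq2). In that comparison QQS had 1 read against 2, too few to tell a difference. IBM1, a histone demethylase that keeps methylation out of genes, rose in shoots by 0.76 ± 0.17 (adjusted p = 0.005). On the log2(TPM + 1) scale 13 of the 32 shoot genes were higher and 0 lower by limma, where 32.9% of all genes were called and 88% of those were higher. Of 10 loci known for methylation-dependent expression, 5 were tested in roots and 6 in shoots. In tpst/psyr1,2,3 over tpst-1, 0 of them passed by edgeR or DESeq2 in either organ, with 1 in roots and 0 in shoots at an unadjusted p under 0.05 by edgeR, while limma on log2(TPM + 1) called 0 in roots and 2 of 6 in shoots, near the 32.9% of all genes.

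In psyr1,2,3 over wild type shoots, where QQS differed little, 1.82% of all genes passed by edgeR. Of 17 starch synthesis, 18 starch breakdown and 13 NF-Y genes, 0 passed there by edgeR, DESeq2 or limma, and 1, 2 and 2 of them had an unadjusted p under 0.05 by edgeR. Of 32 genes of DNA methylation and silencing 0 passed by edgeR. By DESeq2 2 were higher and 1 lower, where 3.86% of all genes were called. By limma on log2(TPM + 1) 1 was higher, where 2.43% were called. With so few genes passing, a count of 0 in lists of this size says little.

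Circadian clock genes were listed because harvest hour is not in the labels. In tpst/psyr1,2,3 over tpst-1, 4 of 9 rose in roots, where 15.4% of all genes passed, LHY most clearly by 0.65 ± 0.12 (adjusted p = 0.000303). That count was 1 by limma on log2(TPM + 1), where 11.8% of all genes were called, 1 without tpst-1 replicate 3 or tpst/psyr1,2,3 replicate 2, and 2 without tpst/psyr1,2,3 replicate 1. In tpst-1 with PSY5 over tpst-1 roots, where 15.2% of all genes passed, 4 of 9 rose as well. That count was 2 without tpst-1 replicate 3 or PSY5 replicate 1. In that comparison QQS had 1 read against 2, too few to tell a difference. In tpst/psyr1,2,3 over tpst-1 shoots, where 14.9% passed, 1 rose and 2 fell, LHY by 0.69 ± 0.12 (adjusted p = 0.000444), while on the log2(TPM + 1) scale 6 were higher and 0 lower, where 32.9% of all genes were called, and LHY differed by -0.30 (adjusted p = 0.179 by limma). In seedlings 2 rose and 2 fell at 6 h, where 14.5% passed, and 3 rose and 4 fell at 7 d, where 19.4% passed, while QQS overlapped with 0 h at both times. The part of harvest hour in the QQS levels was not tested.

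**Figure D5:**
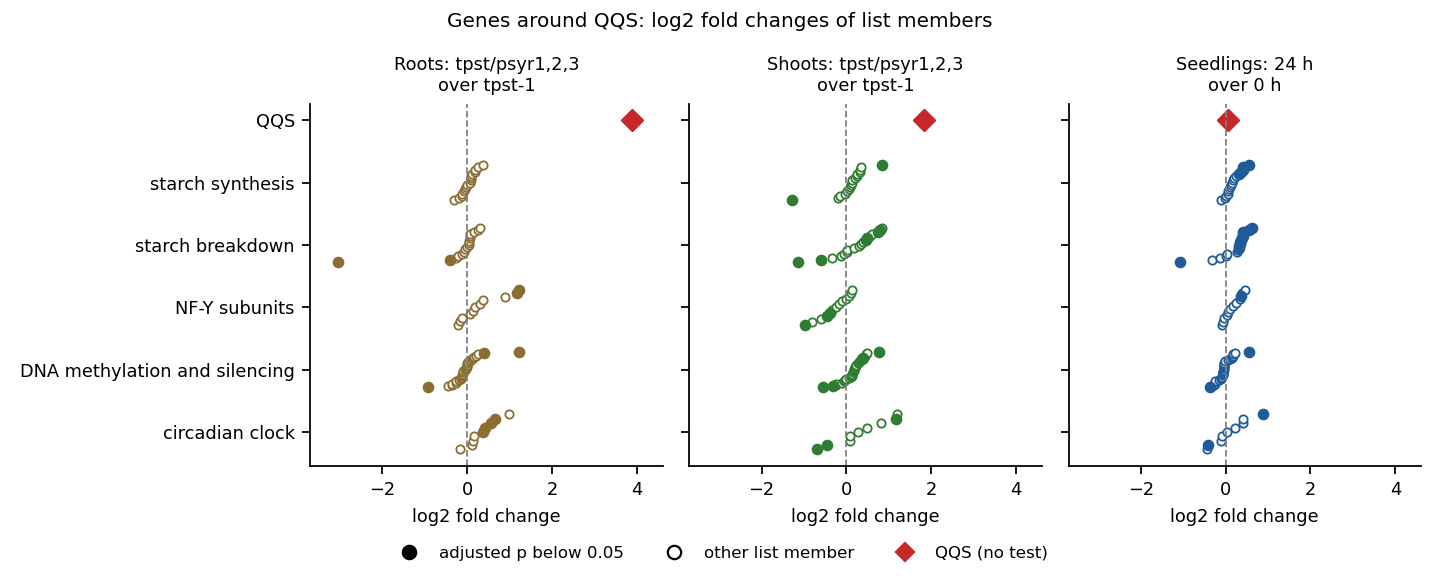
Log2 fold changes (x axis) of QQS and of the tested members of 5 gene lists in tpst/psyr1,2,3 over tpst-1 roots, tpst/psyr1,2,3 over tpst-1 shoots and seedlings at 24 h over 0 h. Filled circles passed an adjusted p of 0.05 by edgeR, open circles did not, and QQS (red diamond) was not tested. QQS lies right of all list members in the first 2 panels and at 0.05 in the seedling panel.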

How the data were processed

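Libraries were grouped by their labels alone. The deposited files give, per the file headers, the TPM, the number of reads and the mean transcript length of each gene in each library. The authors' read numbers are not whole, so they are expected counts, and they were rounded before testing. The submitters' processing notes name build TAIR10, and the aligner and quantification program are not given in the sources used here. Of 21307 genes with 1 RefSeq transcript, 99.3% had the same length in the files and in TAIR10.1. Of the 34262 identifiers, 32548 matched the RefSeq table, which gave the symbols. PSYR1 (AT1G17230), PSYR2 (AT2G33170) and PSYR3 (AT5G63930) carry their published names.

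All groups of a tissue were fitted together with edgeR 4.0.16 (TMM factors, quasi-likelihood tests, R 4.3.3). The filter kept genes with 1 TPM or more in as many libraries as the tissue's smallest group. P-values were adjusted by Benjamini and Hochberg within a comparison over all genes tested, and genes passed below 0.05. What distinguishes replicates is not in the labels, so p-values measure the spread between these libraries, which may be technical. Log2 fold changes are ± SE, levels are mean ± SD. Ratios of reads have 95% exact binomial intervals. No libraries held identical values (0 pairs). The tests were also run on simulated data, with levels equal across groups except in genes altered in the tested group. The outcome is not given here and nothing rests on it.

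QQS, the gene lists (102 loci in 6 lists) and the rules were chosen with earlier results of these data known. Named were QQS, TPST, the PSYR genes, the 5 loci on either side, the 5 most like and 3 most opposed genes by Pearson r of log2(TPM + 1) among genes with a group mean of at least 1 TPM, up to 4 called members of a list per comparison by adjusted p, and NF-YC4. Alternatives were DESeq2 1.42.0, limma 3.58.1 on log2(TPM + 1) and pseudocounts of 0.1 and 5, median-of-ratios factors, no filter, a TPM filter of 5, the compared groups alone, a replicate block, each library left out, CPM, TPM without organelle genes and other measures of likeness. Sequence search used BLAST+ 2.17.0, and figures Python 3.11.15 and matplotlib 3.10.9.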

Additional observations from a re-analysis of the deposited data

Results flagged for a closer look

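In the psyr1,2,3 shoots, replicate 2 stood apart in QQS, at 9.59 TPM, against 4.52 to 5.36 TPM in the other 3 libraries. Its gap to the next library was 0.834 of the group's whole range. In wild type shoots replicate 2 stood apart in the summed level of 8 green tissue markers, at 45600 TPM, and its QQS level of 3.20 TPM was inside the range of its group. In tpst-1 shoots replicate 4 stood apart in the summed level of 8 root markers, at 11.0 TPM, and its QQS level of 13.2 TPM was the second highest of its group. The comparison of 1 library with the rest of its group was made in 15 cases, 3 of which passed, and chance gives about 1 in 20.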

How the results depend on the processing

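In each comparison of tpst/psyr1,2,3 the log2 fold change of QQS kept its sign under every alternative run, and its size changed mainly with the pseudocount, since QQS was near 0 in tpst-1 roots. By limma on log2(TPM + 1), log2(TPM + 0.1) and log2(TPM + 5) it was 3.01, 4.53 and 1.62 in tpst/psyr1,2,3 over tpst-1 roots, and 3.42, 5.81 and 1.73 over tpst-1 roots with PSY5. With a pseudocount of 5 it was -0.11 in tpst-1 with PSY5 over tpst-1 roots. In shoots with that pseudocount it was 0.57 in tpst-1, 2.34 in tpst/psyr1,2,3 and 0.73 in tpst-1 with PSY5 over wild type, and 2.12 in tpst/psyr1,2,3 over psyr1,2,3.

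Single root libraries changed the fitted size most in the comparisons with PSY5-treated roots. In tpst/psyr1,2,3 over tpst-1 roots it lay between 3.34 and 4.24 without 1 library at a time. Without 1 library at a time, the value lay between -2.69 and -0.33 in tpst-1 with PSY5 over tpst-1 roots, the first without PSY5 replicate 1, which holds the group's only read, and between 4.20 and 6.57 in tpst/psyr1,2,3 over tpst-1 with PSY5, the higher again without that library. The psyr1,2,3 value over wild type shoots ranged from -0.02 without psyr1,2,3 replicate 2 to 0.53 without wild type replicate 1. The contrast of 1.56 in shoots ranged from 1.3 to 1.87 over its alternatives. Means relative to the tissue's mean moved by less than 1 SD in CPM or without organelle genes in all 13 groups.

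Counts of called genes moved more. DESeq2 called 1871 genes in tpst-1 with PSY5 and 1874 in tpst/psyr1,2,3 over tpst-1 roots, and in shoots 784 in psyr1,2,3 over wild type and 1621 in tpst-1 with PSY5 over tpst-1. By limma with pseudocounts of 1, 0.1 and 5 the shoot counts were 1052, 1040 and 1053 in tpst-1 over wild type, 577, 431 and 656 in tpst-1 with PSY5 over tpst-1, and 6820, 6531 and 7152 in tpst/psyr1,2,3 over tpst-1. With the compared groups alone they were 793 in tpst-1 and 1054 in psyr1,2,3 over wild type, and 375 in tpst-1 with PSY5 and 1059 in tpst/psyr1,2,3 over tpst-1. With 1 library left out they ranged from 113 (without wild type replicate 1) to 1301 (without tpst-1 replicate 1) in psyr1,2,3 over wild type, and from 548 (without PSY5 replicate 2) to 1655 (without tpst-1 replicate 2) in tpst-1 with PSY5 over tpst-1. Counts of list members moved by over 1.5 times in 278 of 1488 recomputations. With the compared groups alone, counts in tpst/psyr1,2,3 over tpst-1 shoots fell from 6 to 1 for starch breakdown. They fell from 3 to 1 for NF-Y subunits and from 3 to 1 for the circadian clock.

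No pairing by replicate number was seen. Deviations of same-numbered libraries correlated at -0.158 to 0.101 in shoots, where differently numbered ones correlated at -0.139 to 0.21. Same-numbered ones correlated at -0.044 to 0.079 in roots and -0.114 to 0.057 in seedlings. What the numbers stand for is not in the labels, so shared handling of libraries was not tested. With a replicate block the QQS contrast in shoots was 1.57. The QQS values of roots rest on 0 to 16 reads per library, which limits them most.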
